A study of Mus musculus with 12 samples.

Results

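Voltage-gated potassium channels open when the membrane depolarizes and let potassium leave the cell, which ends the action potential and sets how often a neuron can fire. Their pore is built from alpha subunits, and the genes of these subunits fall into families that gate at different voltages and speeds and sit at different places on the neuron. Hippocampal RNA of WT and Nell-1+/6R littermates was examined here for this set of genes. Protein-coding genes whose symbol is Kcna, Kcnb, Kcnc, Kcnd, Kcnf, Kcng, Kcnh, Kcnq, Kcns or Kcnv followed by a number were taken, which gave 40 of the 27179 genes in the table. Of these 40, 37 reached 0.2 CPM (reads of a gene scaled to a common library size) in at least 2 mice and were tested among 17937 genes in all.

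The groups were female Nell-1+/6R, female WT, male Nell-1+/6R and male WT, with 3 mice of each and 12 in all, every one aged 3 months. The 6R allele is a loss-of-function allele of Nell1, so Nell-1+/6R mice carry 1 working copy of it in all tissues, so the loss is not limited to the brain, while the WT mice are littermates. The comparison of the genotypes asks whether losing 1 copy changes the hippocampal transcriptome of young adults in which the study had examined autism-like behavior. The titles of the WT samples carry the abbreviation for heterozygous, although their genotype entry reads WT. Nell1 itself was 36.5 ± 4.55 CPM in WT against 19.1 ± 1.77 CPM in Nell-1+/6R (SD, n = 6 each), and the lowest WT mouse, at 30.6 CPM, lay above the highest Nell-1+/6R mouse, at 20.8 CPM.

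Library totals ran from 10834905 to 16016317 counts. All 15 markers of hippocampal principal neurons on a prepared list were detected, and their summed level was 9625 to 13249 CPM in WT and 10175 to 11809 CPM in Nell-1+/6R. RNA of choroid plexus epithelium differed widely between dissections. The summed level of its 9 markers was 5172 CPM in female Nell-1+/6R replicate 1, 4659 in male WT replicate 3 and 2105 in female WT replicate 1, against 44.4 to 792 CPM in the other 9 mice. Between the genotypes, 7 of 12 leptomeningeal fibroblast markers and 6 of 9 mural cell markers were lower in Nell-1+/6R at an unadjusted p under 0.05. Lower calls made up 2.2% of all genes tested, and 0 markers of either list had an adjusted p under 0.05. The summed levels in Nell-1+/6R against WT were 114 to 429 against 168 to 460 CPM and 116 to 168 against 137 to 233 CPM. Because whole tissue was sequenced, fewer cells of a type and less RNA per cell cannot be told apart.

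What these genes share at the level of sequence is the potassium selectivity filter, the narrowest stretch of the pore. Searched in the longest coding sequence of every protein-coding gene, the filter signature (threonine or serine, an aliphatic residue or methionine, glycine, tyrosine or phenylalanine, glycine) was present once in each of the 40 genes, against 169 of 21976 protein-coding genes (0.769%) that hold it at all. The fourth of its 5 residues was tyrosine in 32 genes and phenylalanine in 8, and the 8 were the Kcnh genes. A filter is printed for a member of several families to show how they differ, with Kcnc4 and Kcnh4, which the genotype comparison turns on, and Kcnh5, the exception within its family. Each line gives 27 coding bases from the GENCODE M21 transcripts of GRCm38, 5′ to 3′ on the gene's strand, all within 1 coding exon, and capitals mark the 15 bases of the signature.
Kcna1 (chr6:126642222-126642248, minus strand): atgaccACTGTGGGATACGGTgacatg
Kcnb2 (chr1:15710040-15710066, plus strand): atgaccACTGTGGGCTACGGTgacatt
Kcnc4 (chr3:107447793-107447819, minus strand): atgacaACGCTTGGCTATGGGgacatg
Kcnf1 (chr12:17175055-17175081, minus strand): atgaccACAGTGGGCTATGGTgacatc
Kcnh3 (chr15:99232923-99232949, plus strand): ctcaccAGTGTGGGCTTCGGCaacgtg
Kcnh4 (chr11:100750287-100750313, minus strand): ctcaccAGTGTAGGCTTCGGCaacgtg
Kcnh5 (chr12:75087460-75087486, minus strand): cttacaACCATAGGATTTGGAaacata

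Among 39 genes compared there were 36 distinct 15-base signatures. In Kcnd1, Kcnd2 and Kcnd3 the run is split by an intron, which was not the case in any other member. Of the Kcnh genes, Kcnh5 begins the signature with threonine, as every member of the other families does, where the other Kcnh genes have serine. No source used here says how reads matching several of these related genes were counted.

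Levels of different genes were compared as CPM per kilobase of merged exons, a level per length. In WT hippocampus 21 of the 37 tested members lay above the median of all genes tested, 3.91 CPM per kb, 15 reached 10 CPM per kb and 10 stayed under 1. Kcna1, encoding the low-threshold axonal subunit Kv1.1, was at 42.7 ± 3.13 CPM per kb (SD, n = 6). Kcnc1 (Kv3.1, a subunit of fast-spiking interneurons) at 28.5 ± 1.15, Kcnh3 (a forebrain channel of the EAG family) at 27.7 ± 2.31 and Kcnc4 (Kv3.4, found in mossy fibre terminals) at 26.6 ± 2.18 lay below it and overlapped each other in their WT mice. Of the 36 neighbouring pairs in the order, 32 overlapped in their WT mice, and 4 did not, among them those below Kcna1, Kcnc4 and Kcnh4. The order depends on the length used. Per kilobase of coding sequence, Kcnc1 at 154 and Kcna2 at 141 passed Kcna1 at 137 CPM per coding kb. At the low end, Kcnh8 was at 0.128 ± 0.0755 CPM per kb of exons.

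**Figure D1:**
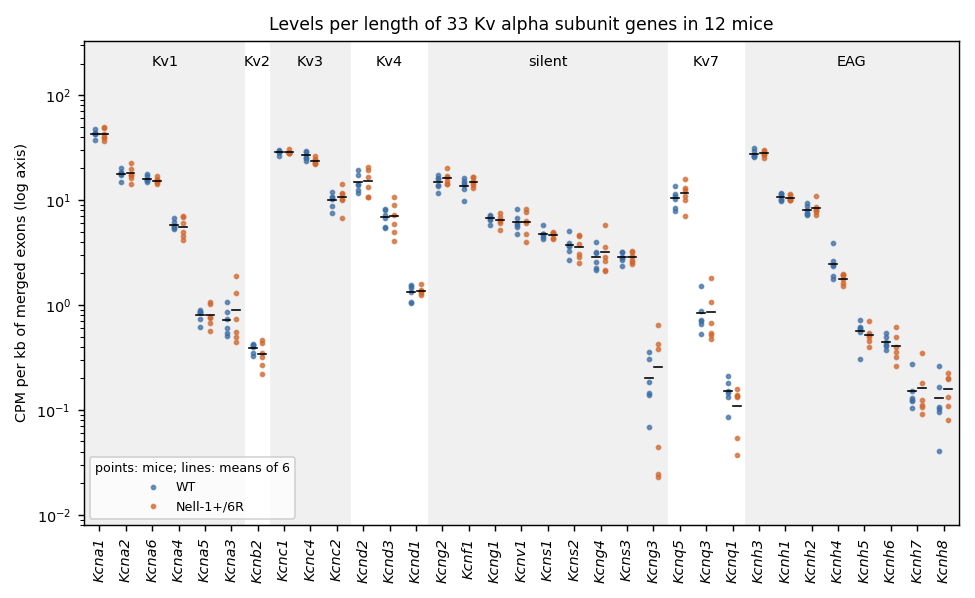
Level per length of 33 tested members in each of 12 mice, as CPM per kilobase of merged exons on a log axis, grouped by family, with WT in blue, Nell-1+/6R in orange and a line at each mean of 6 mice. Kcna1 is at 42.7 and Kcnh8 at 0.128 in WT, and the points of both genotypes overlap for every gene.

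By family, the Kv3 genes held 33.8 ± 1.71% of the summed level per length in WT and 33.6 ± 1.86% in Nell-1+/6R (SD, n = 6 each). The Kv1 genes held 20.9 ± 1.34% and 20.5 ± 1.28%. Next were the silent subunits, which do not conduct alone but join Kv2 subunits and change their gating, at 13.9 ± 0.87% and 14.4 ± 0.449%. The EAG family (Kcnh) held 12.5 ± 0.953% and 12.3 ± 1.15%, the Kv7 family 7.86 ± 0.685% and 8.12 ± 0.752%, the Kv4 family 5.73 ± 0.916% and 5.77 ± 1.36%, and the Kv2 family 5.34 ± 0.166% and 5.18 ± 0.264%. Except for the silent subunits, the difference between the genotypes was smaller than the SD of either. The order depended on the length, since per coding length the Kv7 genes held 11.3% and the silent subunits 11.1% in WT, and the EAG family 6.8%. No test was run on these shares.

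Between the genotypes, no member passed edgeR's quasi-likelihood test after Benjamini-Hochberg adjustment. All 37 adjusted p-values were 1.00, while 7 of all genes tested (0.039%) passed. At an unadjusted p under 0.05, 2 of 37 members (5.41%) were called, Kcnc4 and Kcnh4, against 3.26% of all genes tested. Both were lower in Nell-1+/6R, where the background for lower calls was 2.2%, and 0 members were called higher, where it was 1.06%. At this background, 2 calls among 37 genes are not a result about the set. None of the 37 passed the study's joint threshold of unadjusted p and 1.5-fold change (1.46% of all genes did), and in none did the 6 and 6 mice fail to overlap (0.151% of all genes). The fitted log2 fold changes of the members ran from -0.47 to 0.33 with a median of 0.01, beside -0.00 for all genes. They were within 0.1 of 0 in 23 members and within 0.25 in 32.

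For 29 of the 37 members (78.4%) the 95% interval of the difference lay within 1.5-fold in both directions, as it did for 69.5% of all genes tested. Changes of that size are thus outside the intervals of these 29, among them 5 of the 6 tested Kv1 genes and every Kv2, Kv3 and Kv4 gene. The other 8 were Kcna3, Kcng3, Kcnh4, Kcnh6, Kcnh7, Kcnh8, Kcnq1 and Kcnq3, whose mean levels were at most 12.4 CPM, and for them a 1.5-fold change was not excluded at this depth and number of mice. The members together made up 2604, 2716 and 2859 CPM in the lowest, median and highest WT mouse and 2526, 2735 and 3011 CPM in the lowest, median and highest Nell-1+/6R mouse.

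**Figure D2:**
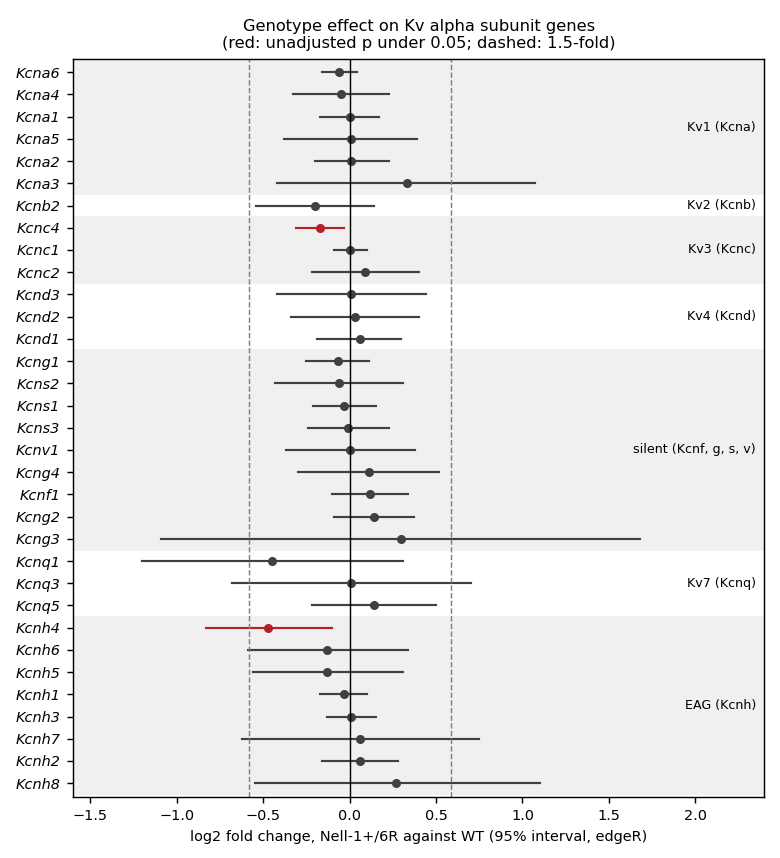
Log2 fold change of Nell-1+/6R against WT with its 95% interval from edgeR for 33 tested members, grouped by family; dashed lines mark 1.5-fold and red marks an unadjusted p under 0.05. Kcnc4 at -0.17 and Kcnh4 at -0.47 are the red genes, and most intervals lie between the dashed lines.

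The Kv1 genes encode low-threshold channels of axons and terminals that hold back repetitive firing. Of 8 genes in the family 6 were tested, and 0 were called between the genotypes by edgeR at an adjusted or an unadjusted p under 0.05, with fitted changes from -0.06 to 0.33. Kcna1 was 179, 204 and 225 CPM in the lowest, median and highest WT mouse and 174, 198 and 238 CPM in those of Nell-1+/6R. Its fitted log2 change was 0.00 (SE 0.0804, unadjusted p = 0.984), and its Nell-1+/6R mice spanned the whole WT range. Kcna2, the usual axonal partner of Kcna1, was 211 ± 21.1 CPM in WT and 214 ± 33.9 in Nell-1+/6R. Kcna3, known for its role in lymphocytes and microglia as well as neurons, had the highest change of any member in the reported fit, 0.33 (SE 0.348, unadjusted p = 0.366). Kcna3 ran from 0.00 to 0.48 with 1 mouse left out. Its Nell-1+/6R mice were 0.843, 1.23 and 3.56 CPM at the lowest, median and highest, against 0.955, 1.27 and 2.03 in WT, so the medians were nearly level and male Nell-1+/6R replicate 3 (3.56) and female replicate 3 (2.48) raised the mean.

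Kv2 channels carry the slow delayed rectifier of the cell body and proximal dendrites. Kcnb2 (Kv2.2) was 5.86 ± 0.604 CPM in WT against 5.19 ± 1.41 CPM in Nell-1+/6R, with unadjusted p = 0.233 in the edgeR test of all 12 mice.

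Kv3 channels repolarize quickly and allow fast-spiking neurons and terminals to fire at high rates. Of their 4 genes, Kcnc4 was called and the others were not. Kcnc4 (Entrez 99738, chr3:107438298-107460287, minus strand) read 108, 105 and 86.9 CPM in the female WT mice and 98.9, 92.8 and 93.2 CPM in the male WT mice. It read 80.3, 82.5 and 82.7 CPM in the female and 88.0, 90.9 and 95.8 CPM in the male Nell-1+/6R mice. The 3 and 3 females of the genotypes did not overlap, by a narrow gap to the lowest WT female, and the males did. The females of Kcng1, which was not called, did not overlap either, and the share of all genes with such a separation was not counted. Over all 12 mice the change was -0.17 (SE 0.0652, unadjusted p = 0.0204, edgeR), from 97.5 ± 8.01 to 86.7 ± 5.94 CPM. The call was lost in 3 of 24 alternative settings, while the change kept its sign in all. The unadjusted p (edgeR) was 0.0559 (log2 change -0.13) without female WT replicate 1 and 0.0526 (-0.14) without female WT replicate 2. It was 0.0989 (-0.13) without the 3 mice richest in choroid plexus RNA. C1ql2, a marker of the dentate granule cells that form mossy fibres, was also lower in Nell-1+/6R, at 74.1 ± 17.1 against 93.0 ± 8.21 CPM (unadjusted p = 0.023, adjusted p = 1.00). Prox1, another such marker, was at 19.7 ± 7.75 against 23.3 ± 7.68 CPM (-0.23, unadjusted p = 0.336). Of the 15 principal neuron markers, 7 had fitted changes above 0 and 8 below. C1ql2 was 1 of 3 called among them, against 3.26% of all genes, and 0 passed adjustment. The others called were Fibcd1 and Spink8, both higher. The part of granule cells in the Kcnc4 value was not tested.

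Kcnc1 had the lowest spread of any member, a coefficient of variation (CV) of 3.58% over the 12 mice, and a fitted log2 change of 0.00 (95% interval -0.09 to 0.10). Kcnc2 (Kv3.2), an interneuron subunit, was 71.4 ± 11.4 CPM in WT against 76.6 ± 17.5 CPM in Nell-1+/6R (0.09, unadjusted p = 0.529). All 15 GABAergic neuron markers of a prepared list had fitted values above 0, with a median of 0.09, beside -0.00 for all genes. Pvalb and Sst were called (unadjusted p = 0.0176 and 0.0187, edgeR), and 0 passed adjustment. Higher calls made up 1.06% of all genes tested. The summed level of the 15 markers was 1258 to 1400 CPM in WT and 1299 to 1484 CPM in Nell-1+/6R, and none was at 0 in the table. Whether that bears on Kcnc2 was not tested.

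**Figure D3:**
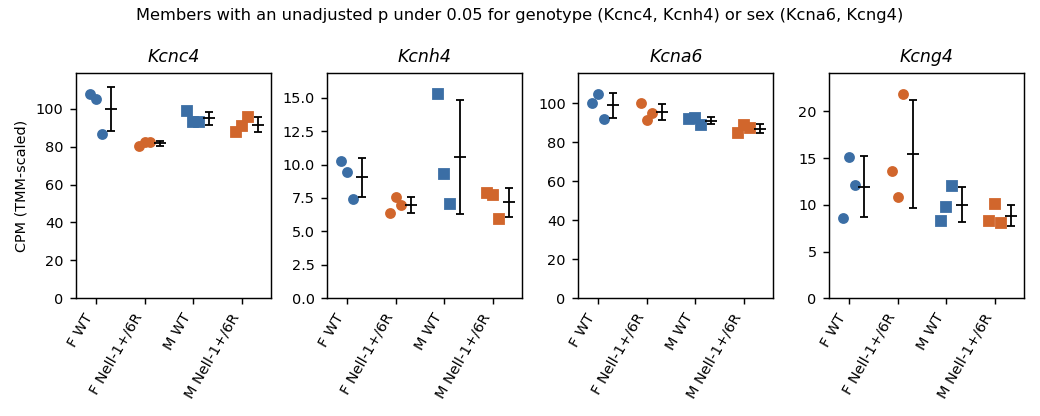
CPM (TMM-scaled) of Kcnc4, Kcnh4, Kcna6 and Kcng4 in each mouse, by sex (F, M) and genotype, with mean and SD of 3 mice beside the points and each axis starting at 0. Kcnc4 separates the genotypes among females, from 80.3 to 82.7 against 86.9 to 108, and Kcnh4 in WT reaches 15.3 in a single male.

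Kv4 channels give the fast-inactivating A-type current of dendrites, which damps back-propagating spikes. All 3 genes were tested, and 0 were called by edgeR (adjusted or unadjusted), with changes from 0.01 to 0.06. Kcnd2 (Kv4.2), the main dendritic A-type subunit of pyramidal cells, was 59.9, 72.5 and 100 CPM in the lowest, median and highest WT mouse. In Nell-1+/6R its lowest, median and highest values were 55.1, 76.7 and 107 CPM (log2 change 0.03, SE 0.172, unadjusted p = 0.868). Kcnd3 (Kv4.3) varied even more among Nell-1+/6R mice, from 38.9 to 103 CPM, around a WT range of 52.4 to 78.9. The Nell-1+/6R range of Kcnd2 thus passed that of WT only slightly at either end, and that of Kcnd3 passed it further.

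Silent subunits were represented by 9 tested genes of 10, of which 0 were called by genotype with edgeR, adjusted or unadjusted. Kcng2, the highest of them per kilobase of merged exons, was 44.1 ± 6.12 CPM in WT against 48.6 ± 6.67 CPM in Nell-1+/6R (log2 change 0.14, SE 0.107, unadjusted p = 0.203). Per kilobase of coding sequence, Kcnf1 at 43.3 lay above Kcng2 at 30.6 CPM per coding kb in WT. Kcnf1 was 65.7 ± 10.8 and 71.5 ± 6.8 CPM (0.12, unadjusted p = 0.256). Kcng3 lay near the detection limit. It was 0.232, 0.552 and 1.18 CPM in the lowest, median and highest WT mouse and 0.0767, 0.716 and 2.14 CPM in those of Nell-1+/6R. The 3 highest Nell-1+/6R mice (1.29, 1.42 and 2.14 CPM) lay above every WT mouse and the other 3 (0.0767, 0.0815 and 0.147 CPM) below every WT mouse, so Nell-1+/6R mice lay on both sides of WT. The fitted change was 0.30 (SE 0.645, unadjusted p = 0.654) with edgeR and -0.30 with limma-voom. Kcns1, Kcns2, Kcns3, Kcng1 and Kcnv1 had changes between -0.07 and 0.00.

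Kv7 channels carry the M-current, which is active near the resting potential and is closed by muscarinic receptors. All 5 genes were tested, and 0 were called by edgeR, adjusted or unadjusted. Kcnq5 was 60.9, 81.4 and 104 CPM in the lowest, median and highest WT mouse and 54.1, 90.5 and 121 CPM in those of Nell-1+/6R (log2 change 0.14, SE 0.166, unadjusted p = 0.41). Kcnq3, an M-channel subunit, was much lower per length, at 0.833 ± 0.35 CPM per kb against 10.4 ± 2.03 for Kcnq5 in WT, and varied widely, with a CV of 50.2%. Kcnq1, better known from heart and ear, had only 84 counts over the 12 mice and was one of the lowest members to pass the filter. It was 0.617 ± 0.17 CPM in WT against 0.448 ± 0.207 CPM in Nell-1+/6R (log2 change -0.45, SE 0.35, unadjusted p = 0.224).

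The Kcnh genes encode the ether-a-go-go (EAG), Erg and Elk channels. All 8 were tested and Kcnh4 was called. Kcnh4 (Entrez 380728, chr11:100740378-100760115, minus strand), an Elk channel of the forebrain, read 10.3, 9.42 and 7.44 CPM in female and 15.3, 9.30 and 7.03 CPM in male WT mice. In Nell-1+/6R it read 6.36, 7.58 and 6.94 CPM in females and 7.85, 7.71 and 5.94 CPM in males. The lowest 2 WT mice fell inside the Nell-1+/6R range, and the other 4 lay above it. The change was -0.47 (SE 0.168, unadjusted p = 0.0154, edgeR), from 9.79 ± 2.97 to 7.06 ± 0.783 CPM. Without male WT replicate 1, the mouse at 15.3 CPM, the change was -0.30 (unadjusted p = 0.0371). Leaving out female Nell-1+/6R replicate 1 and male Nell-1+/6R replicate 3 gave -0.38 (unadjusted p = 0.0636). Of the leptomeningeal and mural markers given above, 12 of 12 and 8 of 9 had fitted changes below 0. Of 9 striatum markers 6 were below 0 and 3 above (median -0.09), and 0 were called by edgeR, adjusted or unadjusted. Of 12 tested thalamus and habenula markers 11 had fitted changes below 0 (median -0.27), with summed levels of 84.7 to 125 CPM against 97 to 154 CPM in WT. Of these, 1 was called, Slc17a6, a vesicular glutamate transporter gene that like Nell1 lies on chromosome 7, at 7.60 ± 1.72 against 17.8 ± 2.69 CPM (log2 change -1.23, adjusted p = 0.0035, edgeR). The part of any of these tissues in this value and that of Kcnc4 was not tested.

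Kcnh3, the most abundant Kcnh gene and another Elk channel, was 149, 153 and 182 CPM in the lowest, median and highest WT mouse and 145, 159 and 174 CPM in those of Nell-1+/6R (log2 change 0.01, SE 0.0642, unadjusted p = 0.875). Kcnh1 (EAG1) was 78.4 ± 5.97 and 76.7 ± 4.68 CPM. Kcnh2, the Erg channel known from cardiac repolarization, was 39.0 ± 4.25 and 40.8 ± 6.66 CPM. Its highest values, 53.5 CPM in female Nell-1+/6R replicate 1 and 45.7 CPM in male WT replicate 3, fell in the 2 mice with the highest choroid plexus marker sums, a match chosen after the values were seen and not tested. Female WT replicate 1, the third mouse by that sum, was at 38.9 CPM, near the WT mean. Kcnh8 had 103 counts over all mice and was 0.585 ± 0.344 CPM in WT against 0.72 ± 0.266 CPM in Nell-1+/6R (0.27, SE 0.384, unadjusted p = 0.486). Its change ran from 0.10 to 0.65 with 1 mouse left out.

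The 3 genes that did not reach the filter were Kcna10 with 8 counts over the 12 mice, Kcna7 with 12 and Kcnv2 with 7. Kcna7 is best known from muscle and Kcnv2 from photoreceptors. Each was at 0 in at least 1 mouse of both genotypes, and no fold change is given, though all 3 entered the fit with no filter, where neither the adjusted nor the unadjusted genotype p of any was under 0.05 (edgeR). What difference in them could be detected at these counts was not tested.

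Males and females were compared in the same fit. Of the 37 members 2 were called at an unadjusted p under 0.05 (5.41%), against 4.72% of all genes tested, both of them lower in males, where the background was 2.85%. After adjustment 0 were called (edgeR, lowest adjusted p 0.868), against 0.0335% of all genes. Kcna6, a Kv1 subunit of axons, was 91.7, 97.6 and 105 CPM in the lowest, median and highest female and 84.6, 89.0 and 92.3 CPM in those of the males. The ranges overlapped between 91.7 and 92.3 CPM, and the change was -0.13 in males (SE 0.0478, unadjusted p = 0.0159). An antisense gene, Gm26673, covers 39.6% of the exon bases of Kcna6. Kcng4, a silent subunit, was 8.62, 12.8 and 21.9 CPM in females and 8.08, 9.03 and 12 CPM in males, a change of -0.53 (SE 0.193, unadjusted p = 0.0155). Female Nell-1+/6R replicate 3 was the mouse at 21.9 CPM, and without it the change was -0.35 (unadjusted p = 0.0398). Without the 3 mice richest in choroid plexus RNA, Kcna6 was at -0.10 (unadjusted p = 0.141).

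The genotype effect was also estimated within each sex. In females 2 members were called at an unadjusted p under 0.05, against 2.84% of all genes tested. These were Kcnc4 (log2 change -0.29, SE 0.0842, unadjusted p = 0.0046) and Kcnb2 (-0.49, SE 0.203, unadjusted p = 0.0317), both lower in Nell-1+/6R (background for lower calls 1.61%). Kcnb2 read 6.23, 5.33 and 6.28 CPM in female WT and 3.37, 4.07 and 5.24 CPM in female Nell-1+/6R mice. These 3 and 3 mice did not overlap, but neither did those of Kcng1, which was not called (28.9 to 31.4 against 23.1 to 28.7 CPM). The share of all genes with such a separation was not counted. In males 1 was called, Kcnh4 (-0.55, SE 0.245, unadjusted p = 0.0421), against 3.37% of all genes and 2.28% for lower calls. None had an adjusted p under 0.05 in either sex, where 0.0167% of all genes did in each. Fitted changes were lower in 28 and higher in 9 members in females (median -0.06) and lower in 13 and higher in 24 in males (median 0.05), with medians of -0.00 and 0.00 over all genes tested. Female Nell-1+/6R replicate 1 was the lowest mouse in 15 members and male Nell-1+/6R replicate 3 the highest in 13. The part of these 2 mice in the counts was not tested.

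Whether the effect differed between the sexes was tested by the interaction. No member was called by edgeR, 0 at an adjusted and 0 at an unadjusted p under 0.05 (lowest p 0.0637, lowest adjusted p 0.987), against 3.09% of all genes tested at the unadjusted threshold. For Kcnc4 the difference was 0.24 (SE 0.119, unadjusted p = 0.0696) and for Kcnb2 0.58 (SE 0.286, unadjusted p = 0.0641). This count changed most without 1 mouse. Without female Nell-1+/6R replicate 3, 7 members were called (18.9%, against 10.3% of all genes in that fit), among them Kcna2, Kcng3, Kcnq5, Kcng2, Kcnd3 and Kcnb2, and 6 of the 7 had a higher effect in males. The lowest adjusted p of a member there was 0.479. With 2 female Nell-1+/6R mice left, that group's spread is assumed to equal that of the others. A single gene was called on leaving out each of female Nell-1+/6R replicate 2 (Kcng4), female WT replicate 3 (Kcnc4), male Nell-1+/6R replicate 2 (Kcnb2) and male WT replicate 2 (Kcnh5). That is 2.7% of the members, against 2.5 to 3.42% of all genes in those 4 fits, so these single calls lie at the background.

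The spread between mice was described by the CV over all 12. Over the 29 members with a mean of at least 5 CPM the median CV was 12.7%, beside 10.3% for all genes at that level. Of these 29, 8 (27.6%) had a CV above 20%, as did 12% of all genes at that level. They were Kcnd2, Kcnd3, Kcng4, Kcnh4, Kcnq3, Kcnq5, Kcns2 and Kcnv1. Among the members, Kcnq3 at 50.2% and Kcnd3 at 27.4% varied several times as much as Kcnc1 (3.58%) or Kcna6 (6.50%). No test was run on these spreads, and the members are not independent of each other.

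Mice at the ends of this variation were of the same genotype. Male Nell-1+/6R replicate 3 was the highest mouse in 13 of 37 members (35.1%), against 15.1% of all genes tested. Female Nell-1+/6R replicate 1 was the lowest in 15 (40.5%), against 15.7% of all genes. Kcnd2 read 107 CPM in the first and 55.1 CPM in the second, Kcnd3 103 and 38.9, Kcnq3 26.7 and 7.67, Kcnq5 121 and 54.1, and Kcnc2 101 and 48.5. The summed level of 10 oligodendrocyte markers was 3152 CPM in the former, the lowest of the 12 mice, and 6853 CPM in the latter, the highest. Choroid plexus markers summed to 46.8 and 5172 CPM, and GABAergic markers to 1484 and 1299 CPM, in the same order. Astrocyte markers, 9 in number, summed to 5527 CPM in the former, the highest of the 12 mice, and 4041 CPM in the latter, the lowest. None of these lists had a marker at 0 in every mouse. The part of these cells in the member values was not tested. Without both mice 1 member was called between the genotypes, Kcnc4, against 4.02% of all genes in that fit.

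**Figure D4:**
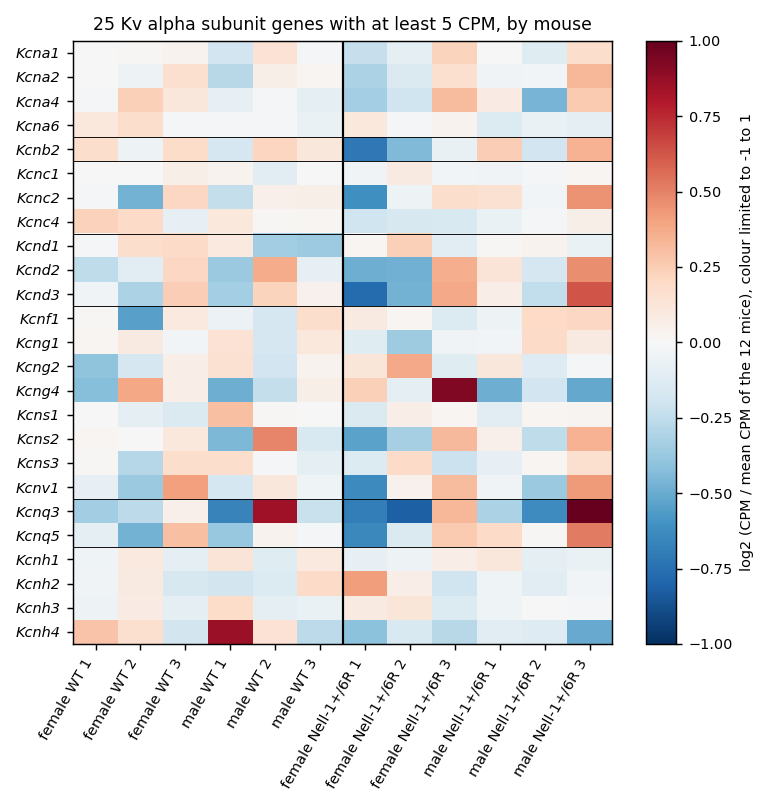
Level of 25 members with at least 5 CPM in each mouse, as the log2 ratio of its CPM to the gene's mean over 12 mice (colours limited at -1 and 1); WT mice are left of the vertical line. Kcnd2, Kcnd3, Kcnq3, Kcnq5 and Kcnc2 are low in female Nell-1+/6R replicate 1 and high in male Nell-1+/6R replicate 3, while Kcnc1 and Kcnh1 are near their mean throughout.

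Kv alpha subunits work with auxiliary subunits and partners, which were counted over lists of potassium channel genes, 80 genes in all with 72 tested. In the reported fit 1 was called at an unadjusted p under 0.05 (1.39%, against 3.26% of all genes) and 0 after adjustment. The count was 1 to 4 in other settings. The called gene was Flna, a filamin that links channels such as Kv4.2 to actin and is also abundant in vascular cells. Flna was 122 ± 16.1 CPM in WT against 104 ± 12.5 CPM in Nell-1+/6R (log2 change -0.24, SE 0.0891, unadjusted p = 0.0158). Of 15 auxiliary subunits 14 were tested and 0 were called by edgeR, adjusted or unadjusted (median change 0.02). Kcnab2, a cytoplasmic beta subunit of Kv1 channels, was the most abundant per length at 184 CPM per kb, with 1029 ± 75.3 CPM in WT against 1076 ± 114 CPM in Nell-1+/6R (0.06, unadjusted p = 0.399). Of the other partners of Kv4 channels, Dpp6 was at 457 ± 20 and 479 ± 12.7 CPM (0.07, unadjusted p = 0.157) and Kcnip2 was at 83.0 ± 8.51 and 86.0 ± 7.38 CPM (0.05, unadjusted p = 0.493). Kcnip1 (0.15, unadjusted p = 0.155), Kcnip3 (-0.05), Kcnip4 (-0.08) and Dpp10 (-0.10, SE 0.221, unadjusted p = 0.666) were not called by edgeR either, and Dpp10 ran from 15.6 to 41.7 CPM in Nell-1+/6R. Amigo1, a partner of Kv2 channels, was 141 ± 4.14 and 143 ± 6.67 CPM (0.02, unadjusted p = 0.686). Kcne2, an ancillary subunit abundant in choroid plexus, ranged from 0.142 to 25.2 CPM over the mice.

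Other potassium channel classes were counted in the same test. Of the calcium- and sodium-activated channels 11 were tested, of the inward rectifiers 13, of the tandem-pore-domain channels 10 and of the hyperpolarization-activated HCN channels 4. In each of these lists 0 genes were called by edgeR, adjusted or unadjusted, and the median log2 changes were 0.06, -0.07, -0.01 and -0.02. Anchoring and partner proteins, such as Ank3, which holds Kv7 channels at the axon initial segment, numbered 20 tested genes with a median change of 0.01. Ank3 was 298 ± 8.37 CPM in WT against 297 ± 24.3 CPM in Nell-1+/6R (-0.01, unadjusted p = 0.916).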

How the data were processed

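RNA from the dissected hippocampus of 12 mice was sequenced on an Illumina HiSeq system. The authors deposited raw counts of reads per gene under Entrez IDs, neither normalized nor pooled. The submitters' processing notes name HISAT2 2.1.0, featureCounts 2.0.1 and the mm10 genome. No source used here gives the strand setting or the treatment of multi-mapping reads, so antisense pairs and close paralogs are uncertain. Columns were matched to mice by the short names in the labels, and groups were taken from the genotype and sex entries. Of 27179 IDs, 25275 were named through RefSeq and 17 through GENCODE, and 1887 have no name.

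Genes with at least 0.2 CPM in 2 or more mice were tested (the study's filter) with edgeR 4.0.16 in R 4.3.3 (TMM scaling, quasi-likelihood test, sex and genotype as terms, Benjamini-Hochberg adjustment over 17937 genes). The study used limma-voom, which was run as an alternative (limma 3.58.1). The effect within each sex and the interaction came from a model with 4 groups. CPM are scaled by the TMM factors, and levels per length use merged exons of GENCODE M21 (GRCm38). Library totals of 10834905 to 16016317 mean that 0.2 CPM stands for 2 or 3 counts. Intervals cover the spread between mice. Alternatives were other scaling factors, limma-voom, DESeq2 1.42.0, no sex term, a replicate block, other filters, coding length and each mouse left out in turn. Tables and figures were made with Python 3.11.15, pandas 2.3.3 and matplotlib 3.10.9.

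In simulated counts for 17937 genes in the genotype comparison, 85% of genes changed 2-fold and 67% of those changed 1.5-fold were recovered at an adjusted p under 0.05, and 97% and 90% at an unadjusted p under 0.05. The changed genes were drawn only from those with a mean count of at least 10. These shares thus do not cover lower genes, such as Kcnq1 (mean count 7.0) and Kcnh8 (8.58).

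Genes are named with full statistics where genotype, sex or interaction p was under 0.05, where genotypes did not overlap, where a member had one of the 2 largest rises or falls with a mean count of at least 10, where it led a family per length, or where it failed or barely passed the filter. The others named were chosen for their role or after their values were seen. Some genes that the rule names are not reported here, and the figures omit them, while counts over the set include every member. The members and gene lists were chosen with earlier results of these data known.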

Additional observations from a re-analysis of the deposited data

Results flagged for a closer look

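In 4 of the 74 groups of 6 mice checked (each tested member in each genotype), the highest mouse stood apart from the rest by Dixon's ratio at the 95% level. That is 5.41%, and chance flags about 1 in 20 groups. Kcnh7 was 4.14 CPM in male WT replicate 2, with the next WT mouse at 2.32, and 5.31 CPM in male Nell-1+/6R replicate 3, with the next Nell-1+/6R mouse at 2.76. Kcnq3 was 22.2 CPM in male WT replicate 2, with the next WT mouse at 12.8. Kcns1 was 15.8 CPM in male WT replicate 1, with the next at 12.9. None of these 3 genes was called between the genotypes.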

How the results depend on the processing

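Over 24 alternative settings for the genotype comparison, 0 members passed an adjusted p under 0.05 (lowest 0.799) and 0 passed the joint threshold. The count at an unadjusted p under 0.05 ran from 1 to 3 (2.7 to 8.82% of the members tested, against 2.14 to 5.12% of all genes). It was 1 to 3 with each mouse left out, 1 without either female WT replicate 1 or female WT replicate 2, and 1 under both settings added after seeing the data (without the mice at both ends of the members' spread, and without the 3 mice richest in choroid plexus RNA). These also gave 1 in place of 2 calls for sex. The interaction count was 0 to 7 with a mouse left out. Among the 72 genes of the other lists the count was 1 in the reported fit, 2 with no filter, 1 to 3 with a mouse left out, 4 without the mice at both ends and 3 without the choroid-rich mice. The median change of the members was -0.06 without female Nell-1+/6R replicate 3 and -0.05 without male Nell-1+/6R replicate 3, and no higher than 0.03 in any setting. Same-numbered mice, as deviations from the mean of their group of 3, correlated at 0.258, 0.0099 and 0.357 in females and 0.132, -0.358 and -0.0393 in males. Differently numbered mice were not compared, so whether the numbers pair the samples is not known. With the replicate block the genotype count was 2 and the interaction count 0.

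Some fitted changes changed sign in other settings, all without a call. Kcng3 was -0.30 and -0.38 with limma-voom (with sex, genotype alone), Kcna1 -0.00 with limma-voom, upper-quartile factors, the replicate block or the stricter CPM filter, Kcnh3 and Kcnh8 -0.01 and -0.00 without the mice at both ends, and Kcnh3 -0.03 without the choroid-rich mice. With a mouse left out they ran from -0.20 to 0.60 for Kcng3, -0.10 to 0.11 for Kcnd2, -0.08 to 0.21 for Kcng4, -0.06 to 0.05 for Kcna1 and -0.02 to 0.05 for Kcnh3. With coding length in place of exon length the WT shares were 26.3% for Kv1, 7.14% for Kv2, 31.6% for Kv3, 11.1% for silent, 11.3% for Kv7 and 6.8% for EAG genes. The SE of the genotype change was 0.645 for Kcng3, 0.384 for Kcnh8 and 0.35 for Kcnq1, whose means were under 1 CPM. The cause of the changes between settings was not tested.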
